A study of Drosophila melanogaster with 2 samples.

Results

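The embryos described here are 32 single embryos of Drosophila melanogaster that were sequenced with the rest of the series but have no column in the deposited pseudo-time table, the ordered set of 84 embryos kept for the analysis of the first 3 h of development. Of 122 barcodes with at least 250000 unique molecular identifiers (UMIs, sequence tags that count each captured RNA molecule once), 41 had a total that equalled no embryo total recovered from the table. Of these, 32 carried at least 3% of their UMIs in zygotic genes, defined as the 1297 genes of the table whose normalized mean was at most 1 over its first 10 columns. Library 1 held 19 of the 32 embryos and library 2 held 13, and no barcode was used in both libraries. None of the 32 had the same counts gene by gene as any table column. The lowest zygotic share among them was 3.24%, the highest among the 9 barcodes left out was 1.96%, and 3 of those 9 matched a table column gene by gene although the totals did not.

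All embryos were wild type, of the DGRP-737 line (an inbred line of the Drosophila genetic reference panel), and both libraries carry the same stage label of at most 3 h. RNA of whole single embryos was barcoded with a modified version of CEL-Seq2, which counts RNA molecules at their polyadenylated ends. Names of the table's columns carry a cage and a collection interval. The study lists by such names the embryos it left out as older than 3 h, from several intervals and both cages. That list is grouped by the study's own clusters and holds fewer names than the 32 embryos, so it cannot hold all of them. The sources used here do not link these names to the barcodes of the 32 embryos. The comparison set was columns 76 to 84 of the table, the 9 embryos at the end of the pseudo-time order, of which 7 came from library 2. Levels are in CPM, the UMI count of a gene per 1000000 UMIs of its embryo, and embryos are named by the number of their barcode. Because the zygotic share and the absence from the table chose the embryos, gene levels are given as a description, without a test. Level limits used to group embryos differ by gene and were not set in advance, so matches between groups depend on them. A gene is called higher or lower where the older embryos and columns 76 to 84 did not overlap and the log2 ratio of the mean levels (1 added to each) was beyond 1. As whole embryos were measured, fewer cells of a type and less RNA per cell cannot be told apart.

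Drosophila embryos pass from cellularization and gastrulation through germ band extension to organogenesis, in which founder and fusion-competent myoblasts fuse into muscles, neuroblasts give rise to neurons and glia, and tracheal tubes form. Pulses of the steroid hormone ecdysone act through a cascade of nuclear receptors. Before hatching, the epidermis secretes the larval cuticle from chitin and many families of cuticle proteins, and the gut prepares for feeding.

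Of the 32 embryos, 30 had a zygotic share above that of every column from 76 to 84, and they are called the 30 embryos from here on. Their zygotic share ran from 7.12% to 15.8% (median 9.80%), against 5.90% to 6.85% in columns 76 to 84. The share of UMIs in genes outside the table was 0.403% at the lowest, 3.11% at the median and 13.9% at the highest in the 30 embryos, against 0.111% to 0.146% in columns 76 to 84. Of the 10178 genes outside the table, 2102 reached 3 UMIs in 5 or more of the 32 embryos and 0 in columns 76 to 84, where the filter behind the table fixes the count. After thinning each embryo to 250000 UMIs, 6806 to 8345 genes were detected in the 30 embryos and 6596 to 6774 in columns 76 to 84. The zygotic share chose the embryos, and the filter behind the table holds the outside share of columns 76 to 84 low, so nothing is read from the gaps between these ranges.

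**Figure D1:**
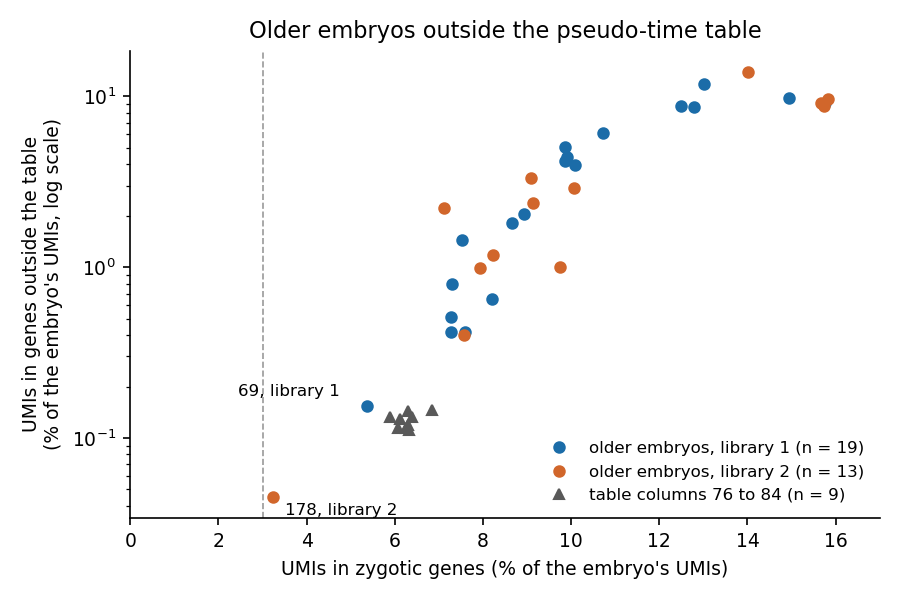
UMIs in zygotic genes (x axis, % of the embryo's UMIs) and in genes outside the pseudo-time table (y axis, %, log scale). Each of the 32 embryos chosen by the rule (named older embryos) is shown by library, with the 9 embryos of table columns 76 to 84 and the 3% minimum as a dashed line. Of the 32 embryos, 30 lie above and to the right of the table columns, whereas embryo 178 of library 2 (3.24% zygotic) and embryo 69 of library 1 (5.37%) lie to their left.

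The other 2 embryos had a zygotic share below columns 76 to 84. Embryo 178 of library 2 had a zygotic share of 3.24% and held bottleneck (bnk) at 1714 and dunk at 1709 CPM, which act in cellularization, as well as slam at 1572 and nullo at 61.9. In the table, bnk reached its highest level, 1763, at column 53 and dunk its highest, 1642, at column 54, while columns 76 to 84 held at most 4.44 of bnk and 9.38 of dunk. Its levels of the Hox genes Ubx and Antp were 1.24 and 3.72. Embryo 69 of library 1 had a zygotic share of 5.37% and held the pair-rule genes paired (prd) at 214, opa at 337 and eve at 101, which divide the trunk into segments. Columns 76 to 84 held at most 40.3 of prd, 93.3 of opa and 13.8 of eve, and the highest levels in the table were 292 of prd at column 73 and 441 of opa and 143 of eve at column 64. In other measures embryo 69 lay slightly above columns 76 to 84, with an outside share of 0.154% (against at most 0.146%), 6833 genes detected after thinning (at most 6774), a summed level of the muscle differentiation genes of 386 (at most 257) and of the neuronal genes of 269 (at most 215). Embryo 178 thus held cellularization transcripts at levels seen earlier in the table, whereas embryo 69 was mixed. Results are given with 32 embryos and with the 30 above columns 76 to 84, a choice made after the values were seen. The name older embryos stands for the set of 32 that the rule chose. It does not place embryo 178 or embryo 69 after columns 76 to 84.

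Among 13089 genes with at least 1 UMI, 36 (0.275%) were higher and 101 (0.772%) were lower in all 32 embryos than in columns 76 to 84. With the 30 embryos, 321 (2.45%) were higher and 357 (2.73%) were lower, and the smaller sets were contained in these. As the embryos were chosen by zygotic transcripts, nothing is read from these counts. Of the 321 higher genes, 66 were outside the table, and 9 had no UMI in columns 76 to 84. All 357 lower genes were genes of the table. The filter behind the table holds genes outside it low in columns 76 to 84, so nothing is read from this or from the 66. The median log2 ratio over all genes was 0.16 with either set. With only the older embryos of library 1 in place of the 32, 92 were higher and 171 lower, and with only those of library 2, 162 and 248. Scaling with TMM factors moved the median of all genes by 0.13 in log2 and changed the sign of 4 of the 254 log2 ratios of genes from the lists and rules (Antp, bap, CycD and smg, from between -0.08 and -0.03 to between 0.02 and 0.13), 0 of which were called. Among the 32 embryos it gave 51 higher and 82 lower, so that 38.3% of the calls were higher in place of 26.3%.

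In the 30 embryos, the largest log2 ratios among genes without overlap and with a mean of at least 20 CPM were those of CG31808 (7.73), muscleblind (mbl, a splicing regulator, 7.05), ImpE1 (an ecdysone-inducible gene, 6.88), CG17124 (6.86), Gs2 (glutamine synthetase, 6.83), Argk (arginine kinase, 6.81), Act57B (a muscle actin, 6.74), CG3164 (6.65), sls (the titin-like protein of the sarcomere, 6.64) and CG5065 (6.54). mbl was at 18.3 at the lowest, 727 at the median and 1117 at the highest, and at most 8.88 in columns 76 to 84. Argk was at 22, 684 and 1473 in the same order, and at most 15.5 in columns 76 to 84, but at 610 in the first 10 columns of the table at the highest. Argk was thus also present in the youngest embryos.

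Several genes that separated all 32 embryos were likewise present in the youngest table embryos and low in columns 76 to 84. The 10 largest log2 ratios with all 32 embryos were those of CG9416 (6.43), Mct1 (a monocarboxylate transporter, 5.95), kirre (5.67), cheerio (cher, filamin, 5.19), Nuak1 (5.12), CG9674 (5.05), Myd88 (an adaptor of the Toll receptor, 4.86), Tob (4.52), Gdap2 (4.39) and midway (mdy, a diacylglycerol acyltransferase, 4.25). Gdap2 ran from 25.1 through a median of 219 to 536 in the 30 embryos, from 3.10 to 25.0 in columns 76 to 84, and up to 606 in the first 10 columns. Myd88 ran from 19.7 through 159 to 248, at most 11.1 in columns 76 to 84, and up to 292 in the first 10 columns. The highest of the first 10 columns was 56.9 for Mct1, 93.2 for cher, 79 for Nuak1, 54.8 for CG9674, 136 for Tob and 45.5 for mdy, but 2.30 for CG9416 and 22.7 for kirre.

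Among the lower genes, wntD, a Wnt family ligand that limits Dorsal signalling in the early embryo (chromosome 3R, 13292052 to 13293198, minus strand), was at 129 to 183 in columns 76 to 84 and at 0 at the median and 20.7 at the highest in the 30 embryos, a log2 ratio of -5.28. The largest differences with all 32 embryos were those of wntD (-4.77), CG10035 (-3.96), CG34025 (-3.90), CG32625 (-3.34), upd2 (a ligand of the JAK/STAT pathway, -3.10), tex (-3.01), tinman (tin, -2.88), CG13427 (-2.79), ind (-2.74) and Six4 (-2.67). With the 30 embryos they were those of Atx-1 (-6.10), wntD, CG10035 (-5.02), Sr-CII (a scavenger receptor, -4.80), CR14033 (-4.77), CG14427 (-4.44), spook (spo, -4.38), distal antenna (dan, -4.26), CG3457 (-4.20) and lncRNA:CR43887 (-4.13). Atx-1 was at 250 to 419 in columns 76 to 84 and at 25.7 at the highest in the 30 embryos. For 2 of the genes the gap was narrow: the highest of the 32 embryos lay just under the lowest of columns 76 to 84 for upd2 (28.9 and 29.7) and for CG32625 (201 and 203).

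Of the 20 minor wave genes, the earliest transcribed zygotic genes, 0 were called, and their median log2 ratio was -1.01 in the 30 embryos, while it was 0.74 with the 32, which include embryo 178. Of 17 major wave genes 4 were lower (ind, phm, wntD, tin), where 2.73% of all genes were, and the median log2 ratio was -0.76. The gap gene list had 1 of 7 lower (2.73% over all genes), giant (gt). It was at 87 to 153 in columns 76 to 84 and at 48.5 at the highest in the 30 embryos. Of 9 pair-rule genes and of 8 measured segment polarity genes 0 were called, with median log2 ratios of -0.99 in both. wingless (wg), the ligand that patterns each segment, was at 635 to 1055 in columns 76 to 84 and at 44.1, 251 and 708 at the lowest, median and highest of the 30, and 28 of the 30 lay below columns 76 to 84. The 8 embryos with wg over 500 all had lmd over 100, and 0 of them had more than 2000 CPM of Mhc.

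Hox genes, which give segments their identity, had 0 of 8 called and a median log2 ratio of 0.86. abd-A was at 88.2, 278 and 604 in the 30 embryos and at 85.3 to 164 in columns 76 to 84, with 21 of 30 above them. Ubx was at 35.1, 97.7 and 184 against 26.4 to 67.4, also with 21 of 30 above. Antp overlapped (109 to 676 against 319 to 521). Scr was above columns 76 to 84 in 20 of 30 embryos and pb in 18, while Abd-B was above them in 19 and below them in 8.

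Mesoderm gives rise to the muscles. Of 8 early mesoderm genes, 3 were lower in the 30 embryos (2.73% over all genes) and 0 were higher. The 3 were twist (twi), snail (sna) and tin, which specify mesoderm. twi was at 220 to 658 in columns 76 to 84 and at 11.7, 48.9 and 151 in the 30 embryos. Over all genes, 3890 of 13089 (29.7%) had a log2 ratio above 1 in the 30 embryos, overlap allowed. All 13 muscle differentiation genes did, with a median of 6.49. Without overlap 5 were higher (2.45% over all genes): nautilus (nau), kirre, Act57B, betaTub60D and sls. nau, the MyoD homologue, had no UMI in columns 76 to 84 and was at 2.45, 18.9 and 31.8 in the 30 embryos, at least 37.5-fold higher in the mean (against 3 UMIs over the 9 embryos together).

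The muscle genes were high in different embryos. lmd, which specifies fusion-competent myoblasts, was over 100 in 10 embryos (109 to 252) and at most 2.22 in columns 76 to 84, and 0 of these 10 had Mhc over 2000. kirre, the adhesion receptor of founder cells, was at 84.3, 156 and 348 in the 30 embryos and at most 4.81 in columns 76 to 84. Act57B was at 69.5, 2134 and 9064 and at 9.63 to 64.4 in columns 76 to 84, so the lowest older embryo lay just above. Among the first 10 table columns, the 8 embryos of library 1 held up to 66.3 of Act57B. Mhc, the myosin heavy chain gene (chromosome 2L, 16766566 to 16788766, plus strand), was at 1.35, 307 and 3523 and at 3.10 to 12.5 in columns 76 to 84. It was over 2000 in 9 embryos, with no embryo between 1686 and 2308, and these were the 9 embryos with more than 8% of UMIs outside the table. The troponin and light chain genes up, wupA and Mlc2 had highest levels of 5982, 3643 and 6430, and all 3 overlapped columns 76 to 84 in some of the 30 embryos.

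These levels have a ceiling. The UMI had 6 bases, which tell 4096 molecules apart, and the largest count was 4092. In the 32 embryos 212 genes had over 2048 UMIs in some embryo. Corrected for coinciding UMIs, the highest Act57B level was 19659 in place of 9064, the highest Mlc2 level 10202 in place of 6430, and the highest Mhc level 3763 in place of 3523. Levels of the most abundant genes are therefore too low as deposited, and the highest of these genes most so.

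**Figure D2:**
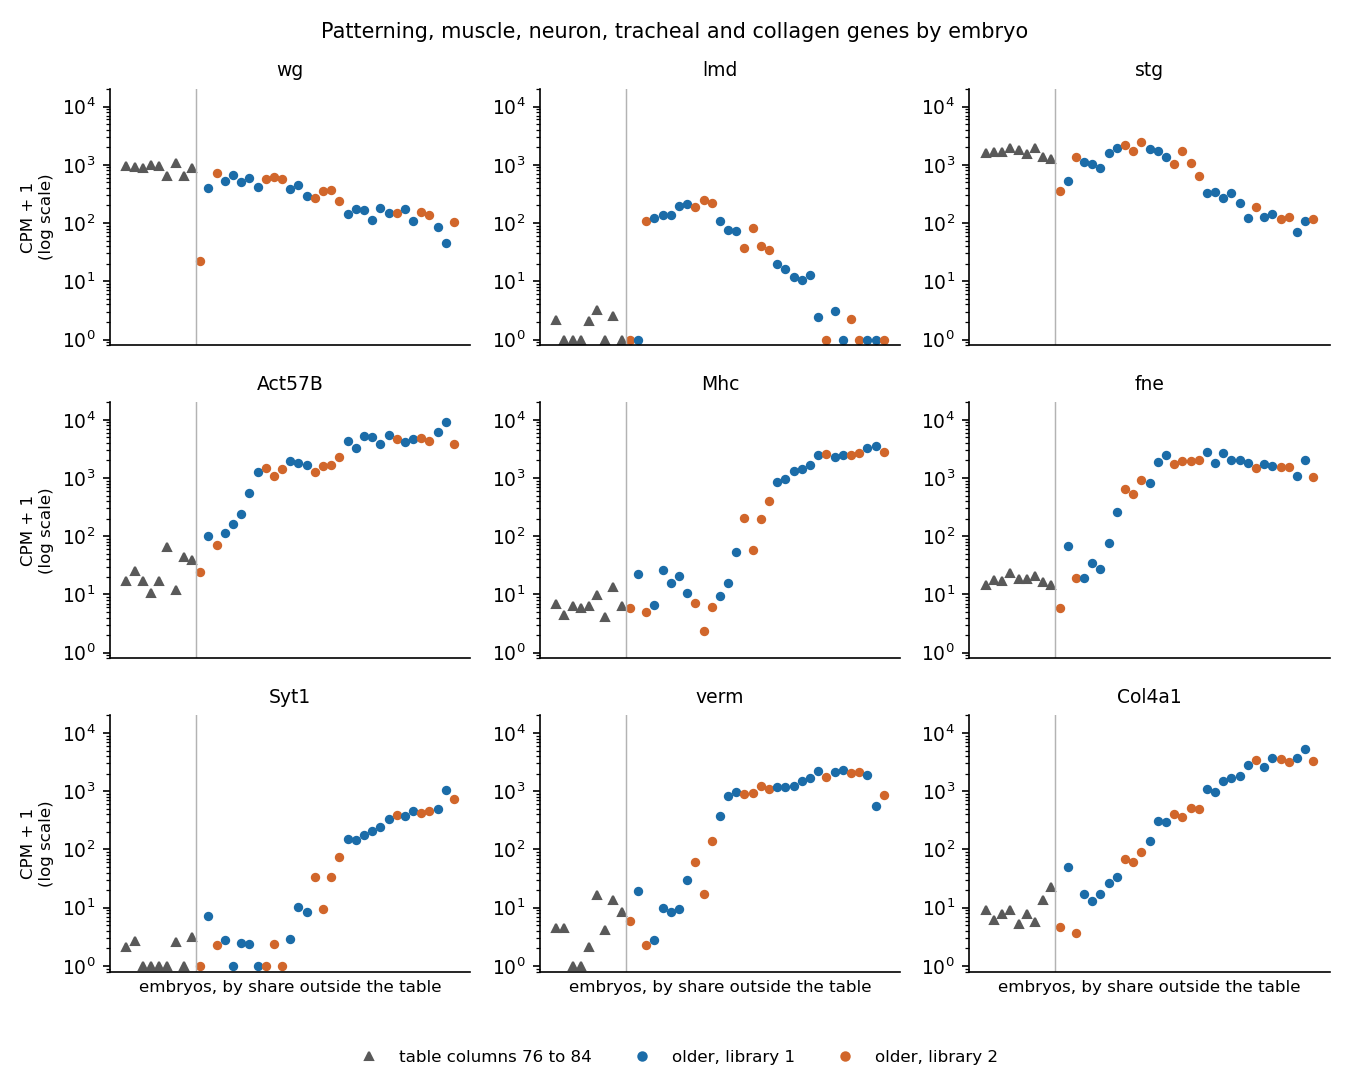
Levels of 9 genes (y axis, CPM + 1, log scale) in each embryo, with the 9 embryos of columns 76 to 84 left of the line and the 32 older embryos right of it, ordered by their share of UMIs outside the table. lmd is over 100 in 10 embryos, fne over 1000 in 20, and Mhc over 2000 in the last 9.

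Of 8 neuronal genes 0 were called, since some of the 30 overlapped columns 76 to 84, but all 8 had a log2 ratio above 1 (29.7% over all genes), with a median of 5.75. found in neurons (fne), an RNA-binding protein, was at 18.3, 1594 and 2815 in the 30 embryos and at 13.7 to 22.5 in columns 76 to 84, and 20 embryos were over 1000. Syt1, the calcium sensor of synaptic vesicles, was at 0, 52.9 and 1050 and at most 2.11 in columns 76 to 84, and was over 100 in 14 embryos, all of which were among the 20. In the other 6 embryos fne was over 1000 and Syt1 at most 73.1. Synaptic brp and nSyb were at 211 and 289 at the highest.

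Of 9 neuroblast genes 0 were called, with a median log2 ratio of 0.43. mira, which localizes fate determinants in dividing neuroblasts, was at 13.8, 146 and 750 against 410 to 796, and scrt, a zinc-finger factor of neural precursors, was above columns 76 to 84 in 29 of 30 (284 to 1033 against 190 to 368). Of 7 glial genes 3 were higher (2.45% over all genes). The list's median log2 ratio was 0.996, with loco at 0.29 and pnt at -0.30. The 3 were the glial master regulator repo (8.87, 49.4 and 117 against at most 1.55), moody, a receptor of the blood-brain barrier (125 to 382 against at most 31.6), and nrv2, a subunit of the sodium pump (165 to 315 against at most 120). repo did not overlap in any of the 30 embryos, whereas gcm, which acts before it, did (0 to 497 against 108 to 224).

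Tracheal tubes are lined with a chitinous matrix that deacetylases modify. Of 6 measured tracheal genes 1 was higher without overlap (2.45% over all genes), vvl (184 to 1046 against at most 93.8). All 6 had a log2 ratio above 1 (29.7% over all genes), with a median of 3.08. The chitin deacetylase gene verm was at 1.31, 951 and 2296 in the 30 embryos and serp at 1.83, 941 and 1972, against at most 15.5 and 8.88 in columns 76 to 84. verm was over 500 in the same 20 embryos in which fne was over 1000. Both limits lie in a gap between embryos (369 to 546 for verm, 940 to 1059 for fne). serp was at 147 in embryo 50 of library 1 and at 495 in embryo 153 of library 2.

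Of 8 hemocyte genes 0 were called, 3 had a log2 ratio above 1 (29.7% over all genes), and the median was 0.48. The log2 ratio was 0.05 for crq and -0.16 for NimC4. The collagen IV genes Col4a1 and vkg, made by hemocytes and fat body, were at 512 and 78.8 at the median and at 5240 and 1192 at the highest, against at most 22.1 and 1.56 in columns 76 to 84. The hemocyte genes Hml and lz were at most 6.46 and 4.20. Of 6 salivary gland genes 0 were called, with a median log2 ratio of 1.33, and the lists for endoderm and midgut and for amnioserosa and dorsal ectoderm had 0 called, with medians of -0.30 and -1.03.

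Of 12 epidermis and cuticle genes 2 were higher (2.45% over all genes), and 11 had a log2 ratio above 1 (29.7% over all genes). The 2 were dumpy (dpy, 147, 328 and 735 against at most 32.7) and pio (32.8, 79.1 and 336 against at most 31.3), both of which encode apical matrix proteins. Ddc, the dopa decarboxylase that hardens cuticle, had no UMI in columns 76 to 84, was at 0.883 at the median and was over 50 in 7 embryos (66.1 to 364). These 7 were all among the 9 embryos with Mhc over 2000. The other 2 of the 9, embryos 95 and 51 of library 1, had Ddc at 18.6 and 9.52.

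Ecdysone is made by the enzymes of the Halloween genes. Of 7 ecdysteroid synthesis genes, 4 Halloween genes were lower in the 30 embryos (spo, phm, dib and sro), where 2.73% of all genes were. sad was lower in 29 of 30. nvd and shd were not called, with log2 ratios of -0.35 and 0.82. dib was at 39.9 to 95 in columns 76 to 84 and at 0, 1.12 and 31.5 in the 30 embryos. The sum of the list was at 102 to 228 in columns 76 to 84 and at most 59 in the 30 embryos. Of 8 ecdysone response genes 0 were called, 7 had a log2 ratio above 1 (29.7% over all genes), and their median was 5.41.

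The response genes were high in different embryos. Hr4, a nuclear receptor (chromosome X, 1941940 to 2007956, plus strand), was at 8.74, 379 and 3586 in the 30 embryos and at most 13.3 in columns 76 to 84, and was over 1000 in 11 embryos (1560 to 3586). The ecdysone-inducible ImpL1 was over 1000 in 5 embryos (1452 to 1810), all in library 1 and all among these 11, and was at most 1.60 in columns 76 to 84. None of these 11 embryos had Mhc over 2000. ftz-f1, a nuclear receptor that follows the hormone pulse in later stages, was over 100 in 7 embryos (119 to 916), 0 of which were among the 11 with Hr4 over 1000.

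Eip74EF, an ETS factor of the early response, was over 400 in 5 embryos (493 to 645), with 74.2 the highest of the other 25, and all 5 were among the 7 with ftz-f1 over 100. Embryos 50 of library 1 and 153 of library 2, which had the largest shares outside the table (11.9% and 13.9%), had ftz-f1 at 26.9 and 10.1 and Eip74EF at 4.90 and 67.3. Eip75B, a nuclear receptor, was at 451 and 710 in these 2 embryos, at 10.6 to 184 in the other 7 with Mhc over 2000, and at 710 at the highest of all 30. The embryos with Mhc over 2000 were thus not alike in these regulators.

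**Figure D3:**
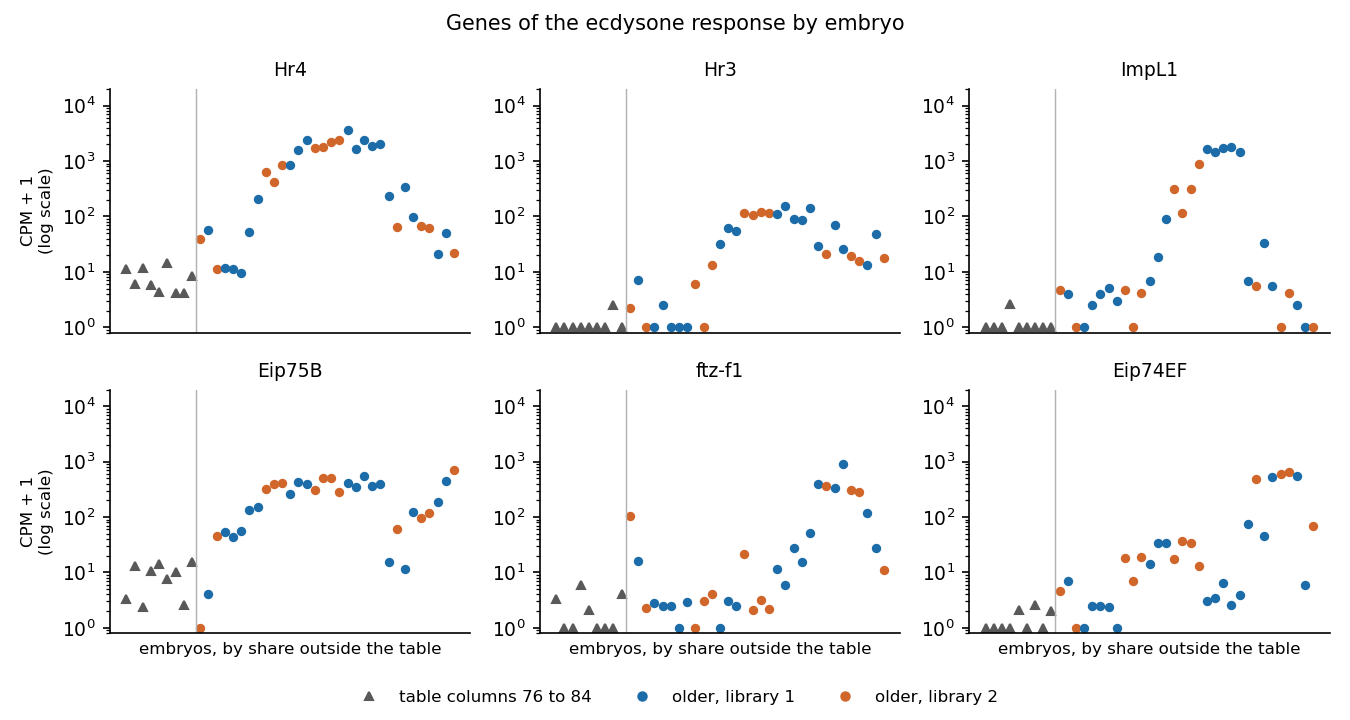
Levels of 6 genes of the ecdysone response (y axis, CPM + 1, log scale) by embryo, with columns 76 to 84 left of the line and the older embryos right of it, ordered by their share of UMIs outside the table. Of the 30 embryos above columns 76 to 84, Hr4 is over 1000 in 11, ImpL1 in 5 of these, and ftz-f1 over 100 in 7 others, of which 5 have Eip74EF over 400.

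The families of cuticle and protease genes were chosen after their values were seen. Genes outside the table enter the share that orders the embryos, and 20 of 24 Osiris, 18 of 26 Tweedle, 61 of 70 Cpr, 8 of 11 Lcp65 and all 16 Jonah genes are such genes.

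The Osiris genes (24 in the annotation) are a cluster of membrane protein genes of cuticle-forming cells. They summed to 0, 236 and 27413 CPM at the lowest, median and highest of the 30 embryos. The sum was at 1.36 to 280 in columns 76 to 84 and at most 273 in the first 10 columns. Of the 30 embryos, 13 lay above columns 76 to 84 and 1 lay below, so the median of 236 is not read as a raised level. The Osiris sum was over 1000 in 9 embryos, and over 10000 in 7, all 7 in library 1. Osi6 alone (chromosome 3R, 6234708 to 6237181, plus strand) was at 10590 at the highest as deposited and 36069 corrected for coinciding UMIs. The highest level as deposited was in embryo 55 of library 1 and the highest corrected level in embryo 31 of library 1. Hr4 was over 1000 in 7 of the 9 embryos, the exceptions being embryos 51 and 95 of library 1, and all 5 embryos with ImpL1 over 1000 were among the 9.

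The Tweedle genes (26), which encode cuticle proteins, summed to over 1000 in 10 embryos, of which 3 were among the 9 with Osiris genes over 1000. They ran from 13692 to 20546 in 7 of the 10, were at 1636 and 3077 in embryos 50 of library 1 and 153 of library 2, and at 1164 in embryo 9 of library 1. The Cpr genes (70), the largest family of chitin-binding cuticle proteins, were over 1000 in 9 embryos (9153 to 23448) and at most 733 in the other 21. These were the 9 embryos with Mhc over 2000.

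The Lcp65 larval cuticle genes (11) were over 1000 in 8 of these 9 embryos (2470 to 18104), with 787 in the ninth, embryo 51 of library 1. Several Lcp65 genes are near-identical copies, so a sum is given, and single members are uncertain. The Jonah genes (16), serine proteases of the gut, were over 1000 in 2 embryos, 2174 in embryo 50 of library 1 and 2166 in embryo 153 of library 2, and at most 711 in the other 28. In these 2 embryos the Lcp65 sum was at 18104 and 11562, and their Tweedle sums of 1636 and 3077 were below those of the other 7 embryos with Mhc over 2000 but above the 75.9 that was the highest of columns 76 to 84.

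Of 7 measured genes of larval tissue products 1, glob1 (a globin), was higher (2.45% over all genes), with 36.3, 91.7 and 189 against 8.43 to 17.1. Lsp1alpha had 0 UMIs, and Sgs3 and Yp1, products of later stages, were at most 1.57 and 2.11.

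**Figure D4:**
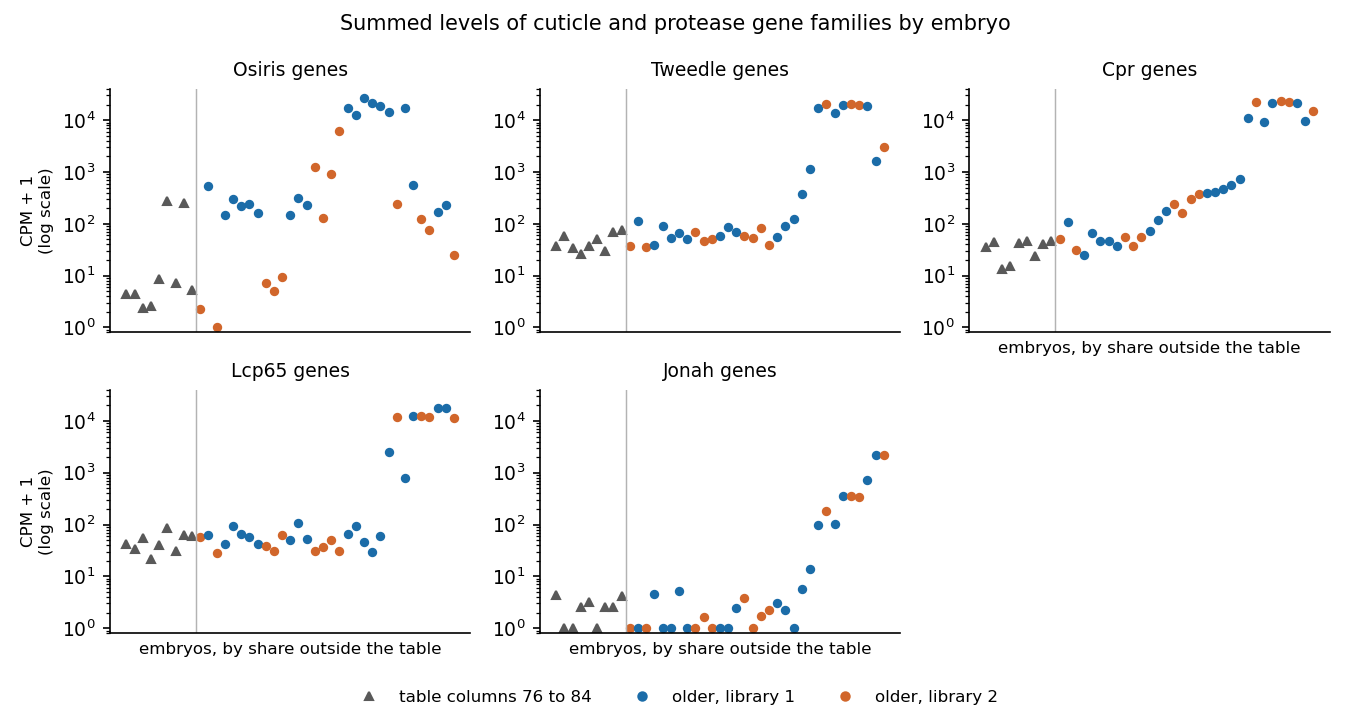
Summed levels of 5 gene families (y axis, CPM + 1, log scale) by embryo, with columns 76 to 84 left of the line and the older embryos right of it, ordered by their share of UMIs outside the table. The Osiris sum is over 10000 in 7 embryos, the Cpr sum at least 9153 in the last 9, and the Jonah sum over 1000 in the last 2, in which the Tweedle sum is at 1636 and 3077.

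Late transcripts were present at low levels in young embryos as well. In the 8 library 1 embryos among the first 10 table columns Osi6 was at 103 to 212 and Act57B at 28.2 to 66.3. In the 2 library 2 embryos among them, Osi6 was at 0.82 and 4.33 and Act57B at 16.2 and 21.4. Of columns 76 to 84, the 2 from library 1 had Osi6 at 181 and 215 and the 7 from library 2 at most 5.41. The 11 older embryos of library 1 with an Osiris sum of at most 1000 had Osi6 at 109 to 234, which is near the level of the young embryos and is not read as expression. The part of this level in the other results was not tested.

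Cells leave the division cycle as tissues form. Cyclin B (CycB) was at 693 to 865 in columns 76 to 84 and at 4.68, 126 and 696 in the 30 embryos, with 29 of 30 below. string (stg), the Cdc25 phosphatase, was at 1263 to 1944 against 68.4, 765 and 2413, and 14 embryos were over 1000. dacapo (dap), an inhibitor of Cyclin E, was above columns 76 to 84 in 21 of 30 (highest 832 against 56.3). Of 6 cell cycle exit genes 0 were called, 1 had a log2 ratio above 1 (29.7% over all genes), and the median was -0.47. The log2 ratio was 0.16 for fzr and -0.03 for CycD.

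roX1, an X-linked RNA of the male dosage compensation complex (chromosome X, 3857230 to 3862697, minus strand), was at 56.2, 1833 and 3919 in the 30 embryos and at 2435 to 4389 in columns 76 to 84. In 4 embryos it was under 100 (56.2 to 92.4), and the next lowest level was 288. These 4, embryo 46 of library 1 and embryos 102, 130 and 158 of library 2, were all among the 9 with Mhc over 2000. In the 4 embryos roX2 was at 0 to 4.68 and msl-2 at 1.17 to 7.50. The other 5 of the 9 had roX1 at 1714 to 2468, roX2 at 18 to 35.1 and msl-2 at 2.45 to 24.3.

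roX2 was at 0, 6.67 and 46.9 in the 30 embryos and at most 3.41 in columns 76 to 84, with 21 of 30 above. Sxl, the switch gene of female development, was at 280 to 503 in the 4 embryos and at 233 to 326 in the other 5, so these ranges overlapped. In the less advanced embryos roX1 was never under 100, and 4 of them lay between 288 and 434. Whether roX1 had a gap at a higher level in these embryos was not tested. The sex of these embryos was not analysed here.

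Maternal transcripts are loaded into the egg and cleared as the zygotic genome becomes active. Of 12 maternal clearance genes 0 were called, and their sum was at 87.5, 381 and 2636 in the 30 embryos and at 360 to 457 in columns 76 to 84. Embryo 125 of library 2 had 2636 and embryo 127 of library 2 had 785, the highest sums of the 30, while embryo 178 had 1312. dhd, a maternal thioredoxin, was at 990 and 272 in these 2 embryos and at 48 at the highest of the other 28, and Hsp26 at 490 and 80.4 against at most 25.2, while columns 76 to 84 held at most 24.4 of dhd and 26 of Hsp26. The germ plasm gene pgc was at 196 and 52.4 and yl, the yolk protein receptor, at 102 and 13.4. Both also held late transcripts, with Hr4 at 1715 and 2422 and ImpL1 at 317 and 901. Without these 2 embryos 320 genes were higher and 385 lower. The cause was not tested.

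**Figure D5:**
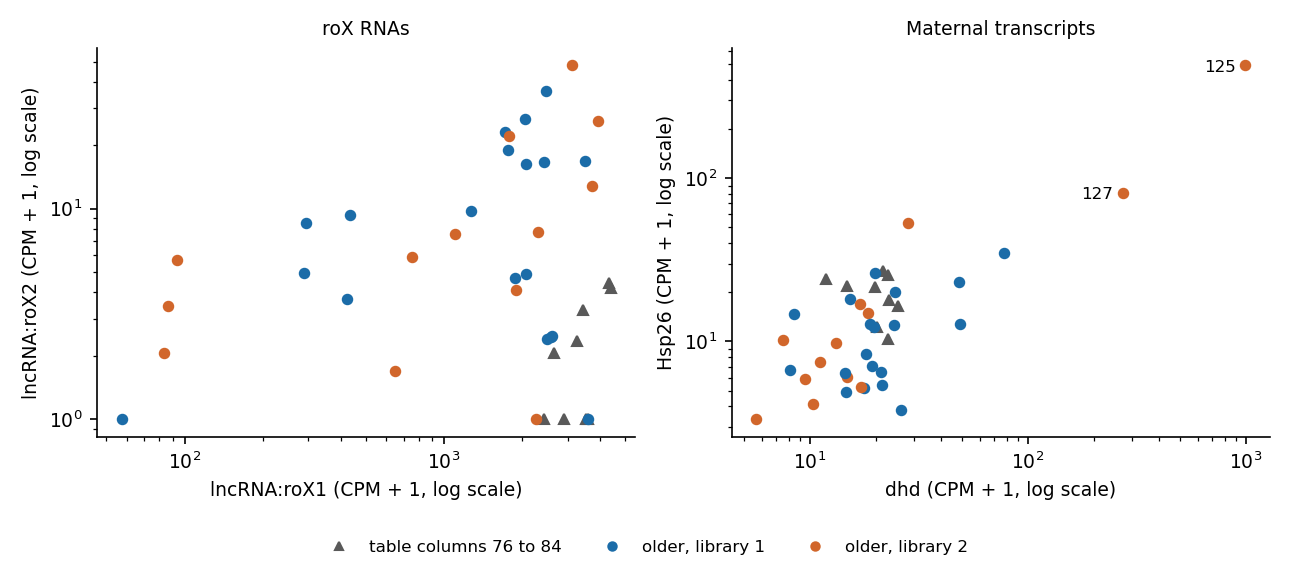
Left, roX1 (x axis) and roX2 (y axis) and right, dhd (x axis) and Hsp26 (y axis), in CPM + 1 on log scales, for each older embryo by library and for columns 76 to 84. In 4 embryos roX1 is under 100, with the next at 288, and embryos 125 and 127 of library 2 stand apart with dhd at 990 and 272.

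The 2 libraries were compared among the 32 embryos, since the rule was applied alike in both. With edgeR's quasi-likelihood test, 0 of 9359 genes (0%) were called (adjusted p under 0.01, fitted log2 difference over 1 in size), and 547 had an unadjusted p under 0.05. DESeq2 called 15, of which 13 were lower in library 2. The lowest adjusted p was between 2.09e-08 and 0.0445 over the alternatives. Among the genes of lowest p in edgeR, Osi18 was at 222 in the mean of library 1 and 0.371 in that of library 2 (log2 fold change -8.98 ± 1.69 SE, edgeR adjusted p = 0.0384), and dunk was at 3.81 and 135 (4.98 ± 0.99, adjusted p = 0.0384), where 1709 in embryo 178 carried the mean. The embryos with Osiris sums over 10000 all came from library 1, so the stage of the embryos and the library cannot be told apart for these genes. Embryos of 1 library share their pool, and p-values measure the spread between embryos. Each SE is the size of the log2 fold change divided by the square root of edgeR's F statistic.

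The depth of the older embryos ran from 326604 to 1478572 UMIs, with a median of 803380 against 644441 in columns 76 to 84 (exact two-sided Mann-Whitney test, p = 0.269, n = 32 and 9). Within library 2 the medians were 933701 and 736827 (exact p = 0.0456, n = 13 and 7), and library 1 had only 2 of columns 76 to 84. The difference within library 2 passed 0.05, and that over both libraries did not.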

How the data were processed

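As deposited by the authors, counts are whole UMI counts, 17807 genes by 192 barcodes per library, which STARsolo (STAR 2.7.8a) gave after mapping to the release 6 assembly and removing repeated UMIs, with no filter on barcodes. The ordered table, of 84 embryos and 7629 genes, holds counts that the authors normalized: the count divided by the embryo's total, multiplied by the smallest total (274491) and raised by 0.1. Removing 0.1 gave whole counts for 100% of its values (tolerance 0.0001), and 81 of 84 recovered totals equalled that of 1 barcode. Gene by gene, all 84 columns were identical to 1 barcode over 7618 genes. Of the table's genes 7254 were matched by symbol, 364 by synonym and 11 by identical counts. Gene positions are those of a later Ensembl annotation of the same assembly.

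Genes named are those of the lists, the 10 with the largest log2 ratio in each direction, and some chosen after their values were seen (gene families, ImpL1, slam). The rule for the libraries named called genes only, and with 0 called the genes of lowest p are given. The members and lists were chosen with earlier results of these data known. The level limits that group embryos were not set in advance. The library test took genes that reached 3 counts in 5 or more embryos, in edgeR 4.0.16 with TMM factors and Benjamini-Hochberg adjustment. Tested on simulated data, it recovered 64.5% of 200 genes changed 4-fold among 9359, with 1 false call. The simulation gave each gene the same mean in all embryos of a library and capped its spread. The recovery therefore does not cover genes that vary strongly with stage. DESeq2 1.42.0, other scalings, pseudocounts, filters, share limits and subsets were alternatives. Python 3.11.15 (with scipy 1.17.1, numpy 2.4.6, matplotlib 3.10.9 and pandas 2.3.3) and R 4.3.3 were used. Depth limits low levels: 1 UMI stands for a larger level in the shallower embryos, and all values cover 1 library preparation per embryo. The gene tal was not matched and is given no value.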

Additional observations from a re-analysis of the deposited data

Results flagged for a closer look

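Among columns 76 to 84, 123 quantities (4 shares and depths, and named genes with a median of at least 20 CPM) were tested for an embryo far from the other 8, and 6 were found, where chance gives about 1 in 20. These were sc at 150 in embryo 62 of library 1 (next 102), gt at 153 in embryo 186 of library 2 (next 120), abd-A at 164 in embryo 110 of library 2 (next 115), pnt at 158 in embryo 62 of library 1 (next 131), CG13427 at 1952 in embryo 111 of library 2 (next 1612), and CG3457 at 160 in embryo 110 of library 2 (next 252). The abd-A value sets the upper bound against which 21 of the 30 older embryos lay higher, and the CG3457 value the lower bound against which all 30 lay lower.

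UMIs were also found at barcodes that the other library used, data that enter no comparison. They made up 1.53% of all UMIs of library 1 (805869, at most 34091 at 1 barcode) and 1.40% of library 2 (862478, at most 46612), far above the 3 counts that a count of 0 allows.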

How the results depend on the processing

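The number of older embryos ran from 28 (at least 500000 UMIs) to 36 (at least 100000 UMIs) over the alternatives. With the 32 embryos, 92 genes were higher and 171 lower with library 1 alone, 162 and 248 with library 2 alone, 191 and 306 with library 2 on both sides, 75 higher at a share of at least 5%, and 321 higher and 357 lower without the 2 embryos below columns 76 to 84. With the 30 embryos, library 2 alone gave 534 higher, and library 2 on both sides 597 higher and 584 lower; fewer embryos leave fewer that can overlap. TMM scaling moved the higher share of all calls from 26.3% to 38.3% with 32 embryos and from 47.3% to 55.8% with 30. Other pseudocounts, a filter on low levels, medians and corrected UMI counts stayed within 1.5 times. Between the libraries, DESeq2 called 15 genes, zygotic share as a covariate 11, a share of at least 5% 1, leaving out the 2 embryos below columns 76 to 84 gave 1, and library totals, no filter and leaving out embryos 125 and 127 of library 2 each 0. The cause was not tested. The difference in median total UMIs was 289260 with library 2 alone (exact p = 0.00891) and 196874 with library 2 on both sides (exact p = 0.0456). Thinning to 250000 UMIs lowered the median of genes detected from 8904 to 7865 in the older embryos and from 7561 to 6724 in columns 76 to 84. Under TMM scaling the log2 ratio changed sign in 4 of 254 named genes, 0 of which were called: Antp (-0.04 to 0.13), bap (-0.08 to 0.02), CycD (-0.03 to 0.05) and smg (-0.08 to 0.02). No paired analysis was possible because the 2 libraries hold different embryos. Levels near 1 UMI are limited by depth, and those near 4096 UMIs by the UMI itself.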
